A study of Mus musculus with 7 samples.

Results

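The potassium channel genes of the mouse are described here in cultured medulloblastoma cells that had been infected with CRISPR guides against genes of the primary cilium. Every row of the gene table whose symbol starts with Kcn and a further letter was taken, which gave 97 of 24047 genes. Of these 97, 63 had at least 10 counts summed over the 7 libraries and were tested, 22 had 1 to 9 counts, and 12 had no count. The rule takes genes by name and uses no measured value, but it was set with earlier results of these data known. By role they were 40 pore-forming voltage-gated subunits (25 tested), 13 auxiliary subunits of voltage-gated channels (7 tested), 15 inward rectifiers (10 tested), 14 tandem-pore channels (9 tested) and 12 subunits of calcium- or sodium-activated channels (10 tested). The remaining 3 rows, Kcnq1ot1, Kcnd3os and Kcnmb4os1, carry the name of a channel gene but are transcripts that do not encode a subunit, and 2 of them were tested.

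SMB21 is a medulloblastoma cell line with a Ptch mutant background, labelled with the strain Ptch1tm1Mps/J and as adult in origin, and it was cultured as neurospheres. All 7 libraries share that background and the lentiCRISPR vector, which delivers Cas9 and a guide by lentivirus. The guide was against GFP in 2 control libraries, against Ofd1 in 3 libraries and against Kif3a in 2 libraries, and RNA was collected 2 weeks after infection. A library is called by its guide and replicate number, from GFP-1 to Kif3a-2, and the 5 without the GFP guide are called cilium-guide libraries, since editing itself was not measured. Ofd1 encodes a protein of the centriole and basal body, Kif3a encodes a motor subunit that carries cargo along the cilium, and Ptch1 encodes the receptor that holds the Hedgehog pathway off. Only 2 of the 3 GFP replicates that the series mentions were analysed here. Whether a library came from a clone or from a pool of infected cells is not stated in the labels. The replicates are labelled biological with no account of separate cultures, so the p-values measure the spread between these libraries.

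Potassium channels let potassium leave the cell, and so set the resting potential and end the action potential. Voltage-gated channels are tetramers of pore-forming subunits, to which cytoplasmic or membrane-spanning auxiliary subunits can bind, while inward rectifiers and tandem-pore channels carry current near rest and a further class opens with intracellular calcium or sodium. Granule neurons of the cerebellum, whose progenitors give rise to Hedgehog-driven medulloblastoma, are known for A-type current through Kcnd channels and for leak current through the tandem-pore subunits Kcnk3 and Kcnk9.

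Library totals ran from 17961767 to 23022701 counts. Every gene with at least 10 counts, 14588 in all, was fitted with edgeR's quasi-likelihood test with a mean per group. A gene is said to have risen, fallen or passed, or is called, where the Benjamini-Hochberg adjusted p over these genes was under 0.05. In the check of the targeted genes, Kif3a stood at 104 and 104 CPM (a gene's count scaled to a common library total) in the GFP control, 90.5, 92.9 and 97.5 with the Ofd1 guide and 73.9 and 60.7 with the Kif3a guide (log2 fold change against GFP control -0.62, adjusted p = 0.00147). Ofd1 stood at 22.5 and 23.1 CPM, 21.0, 19.98 and 22.0 CPM, and 31.6 and 29.1 CPM in the same order, so its own guide gave a log2 fold change of -0.12 (adjusted p = 0.406) and the Kif3a guide 0.41 (adjusted p = 0.0138). The Ofd1 transcript level therefore gives no check of the Ofd1 label, and protein was not measured. Of the 11 markers of granule neuron progenitors, all were above 1 CPM in at least 1 library. Their summed level was 3053 to 3090 CPM in the GFP control, 3264 to 3710 with the Ofd1 guide and 3478 to 3588 with the Kif3a guide. Members went both ways: 5 rose and 3 fell with each guide. Zic4 and Meis1 were among those that rose and the Hedgehog target Ptch1 among those that fell. Over all tested genes 5.35% rose and 6.32% fell with the Ofd1 guide, and 7.55% rose and 8.84% fell with the Kif3a guide. GFP-1 stood apart in 1 respect: its microglia and macrophage markers summed to 19.4 CPM, against 2.95 to 4.61 CPM in the other 6 libraries.

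Totals were scaled with TMM factors, edgeR's correction for differences in library composition, and CPM does not correct for transcript length. Divided by the summed length of the gene's exons in the GENCODE M21 annotation, the levels per kilobase in the GFP control were led by Kcne1l at 29.8 CPM per kilobase, Kcna2 at 24.6, Kcnd3 at 19.0 and Kcnip3 at 16.8. Kcnab1 was at 8.77, Kcnab2 at 5.999, Kcnh2 at 5.17 and Kcnk1 at 5.11 CPM per kilobase. The leading genes are thus mainly voltage-gated subunits and the proteins that bind them. Kcna1, a close relative of Kcna2, was at 0.0951 CPM per kilobase in the GFP control. In the Ofd1 and Kif3a CRISPR libraries Kcnd3 stood at 37.0 and 41.2 CPM per kilobase, Kcne1l at 50.3 and 51.0, and Kcna2 at 34.3 and 36.4.

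**Figure D1:**
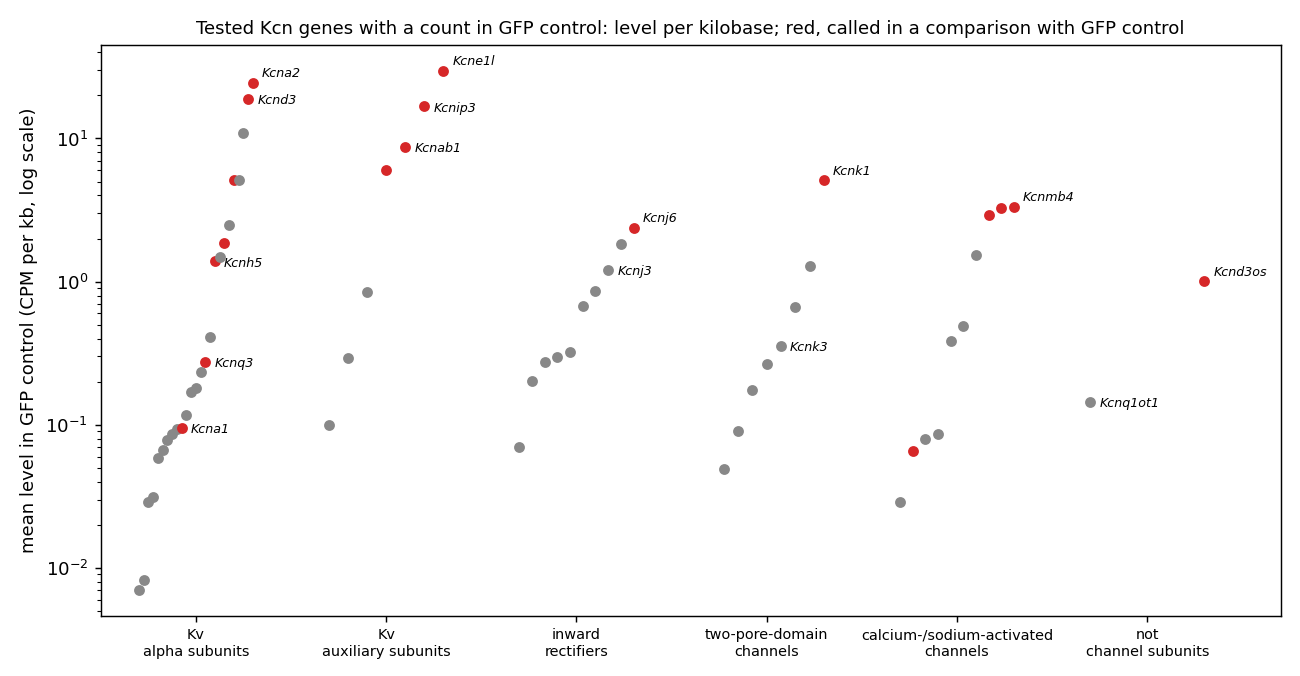
Mean level per kilobase of exon in the GFP control (CPM per kilobase, log axis) of each tested Kcn gene with a count there, by class on the x axis (two-pore-domain is the tandem-pore class), in red where the gene was called against the GFP control. Kcne1l, Kcna2 and Kcnd3 lead at 29.8, 24.6 and 19.0 CPM per kilobase, and Kcna1 lies at 0.0951.

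Against the GFP control, 9 Kcn genes rose and 2 fell with the Ofd1 guide, of 63 tested. The 9 that rose were Kcna1, Kcna2, Kcnd3, Kcnh5, Kcnq3, Kcne1l, Kcnip3, Kcnmb4 and Kcnd3os, and Kcnn2 was among those that fell. Together they made up 17.5% of the tested Kcn genes, where 11.7% of all tested genes passed, 5.35% as higher and 6.32% as lower. The median log2 fold change was -0.05 over the tested Kcn genes and 0.00170 over all tested genes. When libraries were scaled by their totals alone, 56.6% of all called genes were higher rather than 45.8%, and the Kcn counts stayed within 1.5 times. Without GFP-1, 5 Kcn genes passed as higher and 1 as lower, and the lower count was also 1 without Ofd1-1 or Ofd1-2.

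In the Kif3a CRISPR libraries 9 Kcn genes rose and 7 fell against the same GFP control. The 9 higher genes were Kcna1, Kcna2, Kcnd3, Kcnh5, Kcnq3, Kcne1l, Kcnj6, Kcnmb4 and Kcnd3os, and the lower genes included Kcng2, Kcnab1, Kcnab2, Kcnk1, Kcnn4 and Kcnmb1. These made up 25.4% of the tested Kcn genes, where 16.4% of all tested genes passed, 7.55% as higher and 8.84% as lower. The median log2 fold change was -0.02 over the Kcn genes and 0.00469 over all tested genes. Both comparisons use the same 2 control libraries, so a gene with a high or low control value shifts in both, and the lists are given side by side without a test of their overlap. Without Kif3a-1, 3 Kcn genes passed as higher and 1 as lower. Without GFP-1 the counts were 7 and 1, without GFP-2 they were 6 and 2, and without Kif3a-2 the lower count was 4.

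Among the pore-forming voltage-gated subunits, Kcna2, Kcnd3, Kcnh5, Kcnq3 and Kcna1 rose with both guides, while Kcng2 fell with the Kif3a guide. Kcna2, a delayed rectifier of the shaker type found on axons, was the most abundant by counts, at 284 and 300.5 CPM in the GFP control, 452, 403 and 371 CPM with the Ofd1 guide and 474 and 392 CPM with the Kif3a guide. Each cilium-guide library lay above both controls. The log2 fold change was 0.48 with the Ofd1 guide (standard error, SE, 0.0993, adjusted p = 0.0115) and 0.57 with the Kif3a guide (SE 0.108, adjusted p = 0.00526). The first call was lost without GFP-1 (adjusted p = 0.0868) and the second without Kif3a-1 (adjusted p = 0.0814). Kcna1, a shaker-type subunit whose mutation causes episodic ataxia in people, was counted 11 and 6 times in the GFP control, 100, 39 and 31 times with the Ofd1 guide, and 98 and 36 times with the Kif3a guide. In CPM that was 0.54 and 0.30, then 4.92, 2.16 and 1.60, then 4.23 and 1.95. The groups did not overlap with the control, but replicate 1 of either guide was more than 1.5 times any other library of its group. The rise was 2.77 on the log2 scale with the Ofd1 guide (SE 0.616, adjusted p = 0.0160) and 2.88 with the Kif3a guide (SE 0.642, adjusted p = 0.0121). Without Ofd1-1 the first was 2.14, and without Kif3a-1 the second was 2.18 and no longer passed (adjusted p = 0.144). The Kcna1 calls were also lost without GFP-2, with adjusted p = 0.0754 and 0.0507, and with limma-voom in the Ofd1 comparison (adjusted p = 0.0595). Kcna5 and Kcna6, the neighbours of Kcna1 on chromosome 6, had under 10 counts in all.

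Kcnd3 forms A-type channels that open below the firing threshold and inactivate quickly. It stood at 144 and 145 CPM in the GFP control, 344, 257 and 242 CPM with the Ofd1 guide, and 351 and 275 CPM with the Kif3a guide. The control libraries were nearly equal and every cilium-guide library lay above 1.5 times their level, with log2 fold changes of 0.96 (SE 0.145, adjusted p = 0.00261) and 1.12 (SE 0.156, adjusted p = 0.00105) for the Ofd1 and Kif3a guides. Kcnd3os, a transcript that overlaps Kcnd3, stood at 1.28 and 1.45 CPM, then 4.04, 2.72 and 2.88 CPM, then 3.19 and 3.57 CPM in the same order. It rose by 1.24 (adjusted p = 0.0111) and 1.30 (adjusted p = 0.00826). The overlap is one of gene bodies, and the strand setting of the counting is not given. Kcnd3os may therefore share reads with Kcnd3, which was not tested. The Kcnd3os calls were lost without GFP-1 (adjusted p = 0.0800 and 0.0564) and, for the Kif3a guide, without Kif3a-1 (adjusted p = 0.0568). Kcnd2, the A-type subunit known from mature granule neurons, had no count in any of the 7 libraries, and 3 counts, the most that a count of 0 leaves likely, would be 0.129 to 0.166 CPM.

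Kcnh5 encodes a channel of the ether-a-go-go family that has been studied in medulloblastoma cell division. It was at 5.99 and 5.26 CPM in the GFP control, 23.5, 11.2 and 15.3 CPM with the Ofd1 guide, and 17.4 and 15.1 CPM with the Kif3a guide. All 5 cilium-guide libraries lay above both controls, and the log2 fold changes were 1.57 (SE 0.266, adjusted p = 0.00448) and 1.54 (SE 0.283, adjusted p = 0.00454). The Kif3a call was lost without Kif3a-1 (adjusted p = 0.0660). Kcnq3, a subunit of the slow M-current that damps repetitive firing, stood at 3.29 and 3.25 CPM in the GFP control, 10.1, 8.21 and 7.05 CPM with the Ofd1 guide and 9.54 and 7.73 CPM with the Kif3a guide. No cilium-guide library came near the controls. The log2 fold changes of Kcnq3 were 1.37 (SE 0.188, adjusted p = 0.00178) and 1.40 (SE 0.200, adjusted p = 0.00117). Both Kcnq3 calls held under every alternative run.

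Kcng2, a silent subunit that cannot form a channel alone, was at 5.15 and 5.31 CPM in the GFP control, 3.25, 3.996 and 3.76 CPM with the Ofd1 guide and 3.15 and 3.62 CPM with the Kif3a guide. All 5 cilium-guide libraries lay below both controls. Its log2 fold change was -0.51 with the Ofd1 guide (adjusted p = 0.0683) and -0.63 with the Kif3a guide (adjusted p = 0.0389). The Kif3a call for Kcng2 was lost without GFP-1 or GFP-2, without either Kif3a CRISPR library (adjusted p = 0.0732 to 0.222 over these 4), and with DESeq2 (adjusted p = 0.153).

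A further 18 tested pore-forming voltage-gated genes passed in no comparison. Kcnh2, the channel of the delayed rectifier current that ends the cardiac action potential, had adjusted p = 0.816 and 0.355, and Kcnc1, a fast delayed rectifier that permits rapid firing, had adjusted p = 0.260 and 0.437. By counts, 5 of the 25 tested genes of this class rose and 1 fell with the Ofd1 guide (24.0%, against 11.7% of all tested genes). With the Kif3a guide 5 rose and 2 fell (28.0%, against 16.4%).

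**Figure D2:**
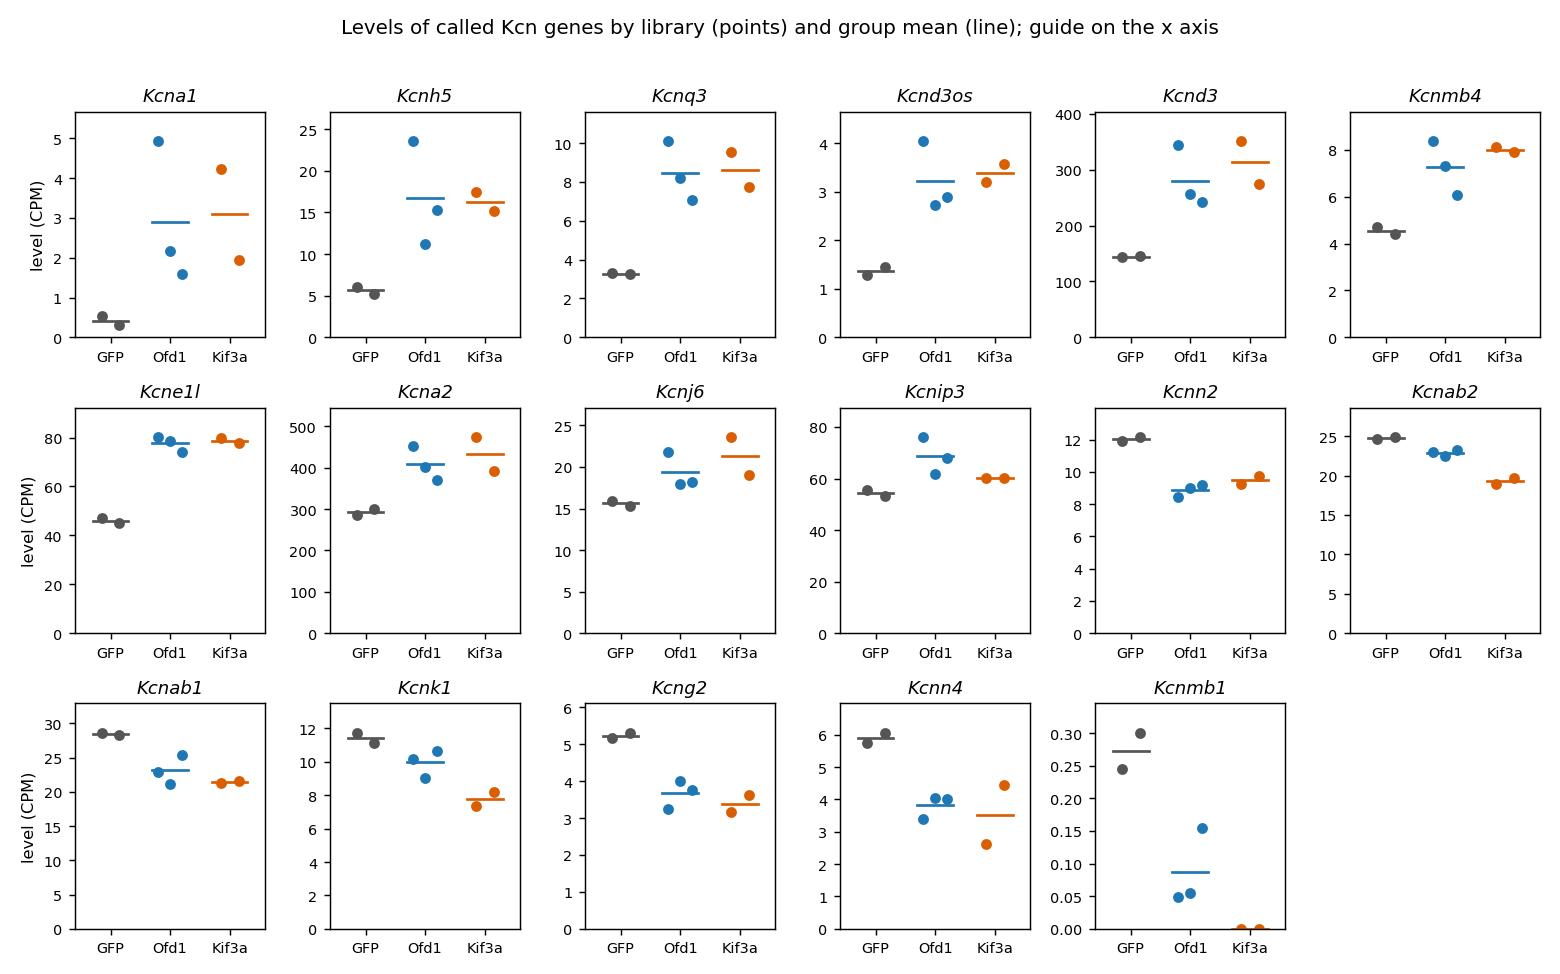
Level in CPM, from 0, of the called Kcn genes named here, a panel per gene, with a point per library, a line at the group mean and the guide on the x axis. Kcnd3 lies at 144 and 145 CPM in the GFP control and between 242 and 351 CPM in the 5 cilium-guide libraries, while Kcng2 lies lower in each of those than in both controls.

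RefSeq promoter windows, on the GRCm38.p6 build, were matched by symbol to 71 of the 97 Kcn genes and to 13 of the 18 genes called in any comparison. The Hedgehog pathway acts through Gli transcription factors, whose motif can be looked for in such windows. The 3 stretches printed below are examples from genes that rose with both guides. They are the 250 bases before the start of Kcnd3 (chr3:105451640-105451889, plus strand), of Kcnh5 (chr12:75177333-75177582, minus strand) and of Kcne1l (chrX:142306199-142306448, minus strand), written 5′ to 3′ on the strand of the gene. Capitals mark CCACCC, the core of the Gli motif, where it stands on the printed strand. Kcna2, Kcnmb4 and Kcnd3os also rose with both guides and have a window, but are not printed. CCACCC was absent from the Kcna2 and Kcnmb4 windows and present in that of Kcnd3os, so the printed stretches do not stand for all genes that rose.
Kcnd3: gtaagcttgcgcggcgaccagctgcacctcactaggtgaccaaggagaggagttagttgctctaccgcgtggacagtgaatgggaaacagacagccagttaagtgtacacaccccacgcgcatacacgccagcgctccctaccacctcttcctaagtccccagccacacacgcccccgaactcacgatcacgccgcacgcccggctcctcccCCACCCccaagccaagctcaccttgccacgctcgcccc
Kcnh5: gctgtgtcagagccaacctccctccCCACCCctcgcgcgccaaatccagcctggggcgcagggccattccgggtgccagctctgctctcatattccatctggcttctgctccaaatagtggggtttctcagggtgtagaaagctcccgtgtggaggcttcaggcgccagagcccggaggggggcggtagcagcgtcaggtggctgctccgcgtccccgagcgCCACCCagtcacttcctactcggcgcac
Kcne1l: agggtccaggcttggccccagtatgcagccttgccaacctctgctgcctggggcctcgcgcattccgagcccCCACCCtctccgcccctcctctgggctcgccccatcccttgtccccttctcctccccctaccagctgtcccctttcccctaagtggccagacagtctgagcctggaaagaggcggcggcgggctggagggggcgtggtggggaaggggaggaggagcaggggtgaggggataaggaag

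Both strands of windows of 300 bases, 250 before the start and 50 after it, were searched for letters. The Gli motif GACCACCCA was in 0 of 96 Kcn windows and in 0.253% of all 32851 windows. Its core CCACCC, which lies within GACCACCCA and so is found wherever that is, was in 56 of 96 Kcn windows (58.3%) and in 31.5% of all windows. It did not set the called genes apart, since it was found for 8 of 13 called Kcn genes and for 20 of 31 Kcn genes that were tested and not called. The half-sites TTCAGCACC and GGACAGCGC, bound by the neuronal repressor Rest, were found for 0 of the 13 called genes, and in 0.371% and 0.405% of all windows. Rest itself was at 37.9 and 37.4 CPM in the GFP control, 39.4, 36.4 and 32.2 CPM with the Ofd1 guide, and 37.4 and 35.4 CPM with the Kif3a guide, and did not pass (adjusted p = 0.695 and 0.787). A match describes these letters only, and no binding was measured.

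Of the 7 tested auxiliary subunits, 2 rose with the Ofd1 guide (28.6%, against 11.7% of all tested genes). With the Kif3a guide 1 rose and 2 fell (42.9%, against 16.4%). Kcne1l, a membrane-spanning beta subunit of the Kcne family, had the smallest standard error of the genes that rose with both guides. Its level was 47.0 and 45.0 CPM in the GFP control, 80.2, 78.5 and 74.2 CPM with the Ofd1 guide, and 79.7 and 77.7 CPM with the Kif3a guide. The cilium-guide libraries lay together, well above both controls. The log2 fold changes were 0.76 (SE 0.0705, adjusted p = 0.000494) and 0.77 (SE 0.0759, adjusted p = 0.000175), and both calls held under every alternative run. Kcnip3, a calcium sensor that binds Kcnd channels and also DNA, stood at 55.6 and 53.0 CPM, then 76.1, 61.8 and 67.9 CPM, then 60.2 and 60.2 CPM. It rose by 0.34 with the Ofd1 guide (adjusted p = 0.0323), while its log2 fold change with the Kif3a guide was 0.15 (adjusted p = 0.326). The difference between the guides did not pass for Kcnip3 (adjusted p = 0.586). Its Ofd1 call was lost without any 1 of GFP-1 or GFP-2, Ofd1-1 or either Kif3a CRISPR library (adjusted p = 0.0542 to 0.194), and when only the 2 groups compared were fitted (adjusted p = 0.0531).

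Of the genes for cytoplasmic beta subunits of Kcna channels, Kcnab1 and Kcnab2 fell with the Kif3a guide, where Kcna1 and Kcna2 rose. Kcnab1 was at 28.6 and 28.3 CPM in the GFP control, 22.8, 21.2 and 25.4 CPM with the Ofd1 guide, and 21.3 and 21.6 CPM with the Kif3a guide. All 5 cilium-guide libraries lay below the controls, with log2 fold changes of -0.30 (adjusted p = 0.0614, and 0.0201 without Ofd1-3) for the Ofd1 guide and -0.41 (adjusted p = 0.0213) for the Kif3a guide. Kcnab2 was at 24.7 and 24.9 CPM, then 23.03, 22.4 and 23.3 CPM, then 18.9 and 19.7 CPM, and its log2 fold changes were -0.11 (adjusted p = 0.401) and -0.36 (adjusted p = 0.0217). The Kif3a calls for Kcnab1 and Kcnab2 were lost without any 1 of GFP-1, GFP-2, Kif3a-1 and Kif3a-2, at adjusted p = 0.0719 to 0.130 for Kcnab1 and 0.0539 to 0.133 for Kcnab2. With DESeq2 the Kcnab2 call was lost as well (adjusted p = 0.0532). The third beta subunit gene, Kcnab3, passed in neither comparison.

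In the calcium-activated class 1 gene rose and 1 fell of 10 tested with the Ofd1 guide, and 1 rose and 2 fell with the Kif3a guide. Kcnmb4, the neuronal beta subunit of the large-conductance channel, stood at 4.71 and 4.41 CPM in the GFP control, 8.37, 7.33 and 6.07 CPM with the Ofd1 guide and 8.11 and 7.90 CPM with the Kif3a guide. It rose by 0.67 (adjusted p = 0.0230) and by 0.81 (adjusted p = 0.00957), in every cilium-guide library. The pore subunit it binds, Kcnma1, was at 0.0863 to 0.451 CPM over the 7 libraries and passed in neither comparison. The Ofd1 call for Kcnmb4 was lost without GFP-1 (adjusted p = 0.106) or GFP-2 (0.150) and without Ofd1-1 (0.0607) or Ofd1-2 (0.0560). Its Kif3a call was lost without GFP-2 (0.0628) or Kif3a-1 (0.0837).

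Kcnn2, a small-conductance channel that shapes the pause after a spike, was at 11.9 and 12.2 CPM in the GFP control, 8.47, 8.99 and 9.21 CPM with the Ofd1 guide and 9.23 and 9.73 CPM with the Kif3a guide. All cilium-guide libraries lay below the controls. It fell by 0.44 with the Ofd1 guide (adjusted p = 0.0264), and the log2 fold change with the Kif3a guide was -0.35 (adjusted p = 0.0707). The Ofd1 call was lost without any 1 of GFP-1, GFP-2, Ofd1-1 and Ofd1-2 (adjusted p = 0.0548 to 0.183) and with DESeq2 (0.0873). Kcnn4, the intermediate-conductance channel best known from blood cells and proliferating cells, was at 5.74 and 6.06 CPM, then 3.40, 4.05 and 4.01 CPM, then 2.63 and 4.43 CPM, with log2 fold changes of -0.63 (adjusted p = 0.0737) and -0.76 (adjusted p = 0.0464). The Kif3a call for Kcnn4 was lost without any 1 of GFP-1, GFP-2, Ofd1-2, Ofd1-3 and Kif3a-1 (adjusted p = 0.0563 to 0.295), with DESeq2 (0.0896), with the 2 groups alone (0.0611) and with library totals alone (0.0502). The Ofd1 comparison of Kcnn4 passed with no filter (0.0361), with the 2 groups alone (0.0410) and without Kif3a-1 (0.0399) or Kif3a-2 (0.0419). Kcnmb1, the smooth-muscle beta subunit, had 5 and 6 counts in the GFP control, 1, 1 and 3 with the Ofd1 guide and 0 and 0 with the Kif3a guide. Against a floor of 3 counts over the Kif3a CRISPR group it was at least 3.79-fold lower there (adjusted p = 0.0329), which rests on 11 counts in the control and was lost without any 1 of the 4 libraries compared (adjusted p = 0.0632 to 0.159). The gene body of Kcnmb1 overlaps that of Kcnip1. With the strand setting not given the 2 genes may share reads, which was not tested.

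None of the 10 tested inward rectifiers passed with the Ofd1 guide by edgeR with the settings used throughout, DESeq2 or limma-voom. Of these 10, 1 had an unadjusted p under 0.05. Over all tested genes edgeR called 11.7% with the Ofd1 guide and 16.4% with the Kif3a guide. With the Kif3a guide 1 of the 10 inward rectifiers rose, Kcnj6. It encodes a subunit of the channels opened by G proteins and underlies the weaver phenotype of granule cells when mutated. It stood at 15.95 and 15.3 CPM in the GFP control, 21.9, 17.98 and 18.2 CPM with the Ofd1 guide and 23.6 and 18.98 CPM with the Kif3a guide. Every cilium-guide library lay above the controls, with log2 fold changes of 0.31 (adjusted p = 0.134) and 0.45 (adjusted p = 0.0446). The Kif3a call was lost without any 1 of GFP-1, GFP-2, Ofd1-2, Ofd1-3 and Kif3a-1 (adjusted p = 0.0527 to 0.338), with DESeq2 (0.0567) and with upper-quartile factors (0.0511). Kcnj3, the usual partner of Kcnj6, was at 5.56 to 6.48 CPM in the 7 libraries and did not pass.

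None of the 9 tested tandem-pore genes passed with the Ofd1 guide by edgeR with the settings used throughout, DESeq2 or limma-voom. Of these 9, 3 had an unadjusted p under 0.05. The edgeR share over all tested genes was 11.7% with the Ofd1 guide and 16.4% with the Kif3a guide. With the Kif3a guide Kcnk1, a weakly conducting channel, fell by 0.56 (SE 0.134, adjusted p = 0.0166). Its level was 11.7 and 11.1 CPM in the GFP control, 10.2, 9.05 and 10.7 CPM with the Ofd1 guide and 7.34 and 8.17 CPM with the Kif3a guide, which lay lowest. The call for Kcnk1 was lost without GFP-1 (adjusted p = 0.115) or GFP-2 (0.0606) and without Kif3a-1 (0.137). Of the acid-sensitive leak channels of granule neurons, Kcnk3 was at 1.37 and 1.35 CPM, then 1.03, 1.83 and 0.82 CPM, then 1.34 and 1.46 CPM, with overlapping groups. Kcnk9 had 0 and 0 counts in the GFP control, 2, 2 and 4 with the Ofd1 guide and 3 and 1 with the Kif3a guide, and did not pass (adjusted p = 0.0981 and 0.151). Kcnk6 had 15 counts in GFP-1, 1 in Ofd1-1 and 0 in the other 5 libraries. The same control library carried the microglia and macrophage markers given above, with Itgam at 3.09 CPM and Lyz2 at 5.94 CPM against 0 for both in GFP-2. The part of those cells in the Kcnk6 count was not tested.

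**Figure D3:**
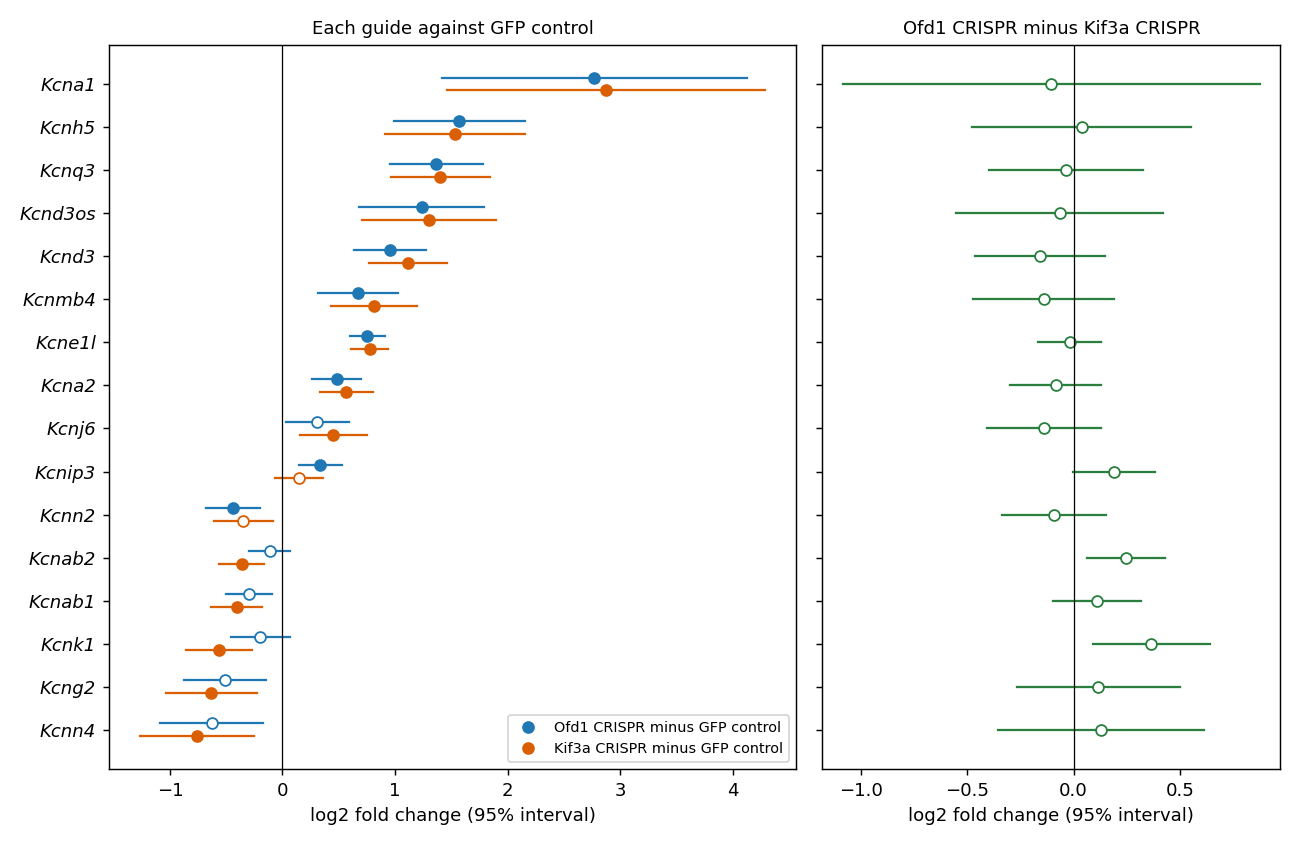
Log2 fold change of the called Kcn genes named here, each guide against the GFP control on the left and Ofd1 CRISPR minus Kif3a CRISPR on the right, with 95% intervals as lines, filled points for calls and open points for genes that did not pass. On the left Kcna1, Kcnh5 and Kcnq3 lie highest at 2.77, 1.57 and 1.37 with the Ofd1 guide and Kcnn4 lies lowest at -0.63 and -0.76 for the Ofd1 and Kif3a guides; Kcnmb1, with no count for the Kif3a guide, is left out.

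Between the 2 guides no Kcn gene passed with edgeR (0 higher and 0 lower of 63 tested, where 0.103% of all tested genes passed), and 4 had an unadjusted p under 0.05, among them Kcnab2, Kcnk1 and Kcnmb1. DESeq2 called 1 gene and limma-voom called 0. For the genes that rose with both guides the intervals bound how different the responses can be. The interval was -0.17 to 0.13 for Kcne1l and -0.30 to 0.13 for Kcna2. For Kcnd3 it was -0.46 to 0.15. It was wider for Kcna1, at -1.09 to 0.88.

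The rises were uneven between replicates. Replicate 1 was the highest library of its group for 9 of the 9 Kcn genes that rose with the Ofd1 guide and for 8 of the 9 that rose with the Kif3a guide. The same held for 627 of the 780 genes called higher with the Ofd1 guide over the whole table (80.4%) and for 817 of 1101 with the Kif3a guide (74.2%), so the pattern was not limited to channels. Summed over all Kcn genes the level was 887 and 912 CPM in the GFP control, 1327, 1154 and 1092 CPM with the Ofd1 guide, and 1291 and 1146 CPM with the Kif3a guide. Most of that difference lay in a pair of genes: Kcna2 and Kcnd3 together held 48.3% and 48.8% of Kcn counts in the GFP control, 59.96%, 57.2% and 56.1% with the Ofd1 guide, and 63.9% and 58.2% with the Kif3a guide. Without them the sums were 459 and 467 CPM, then 531, 494 and 479 CPM, then 466 and 479 CPM. The number of Kcn genes with a count was 66 to 71 per library.

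**Figure D4:**
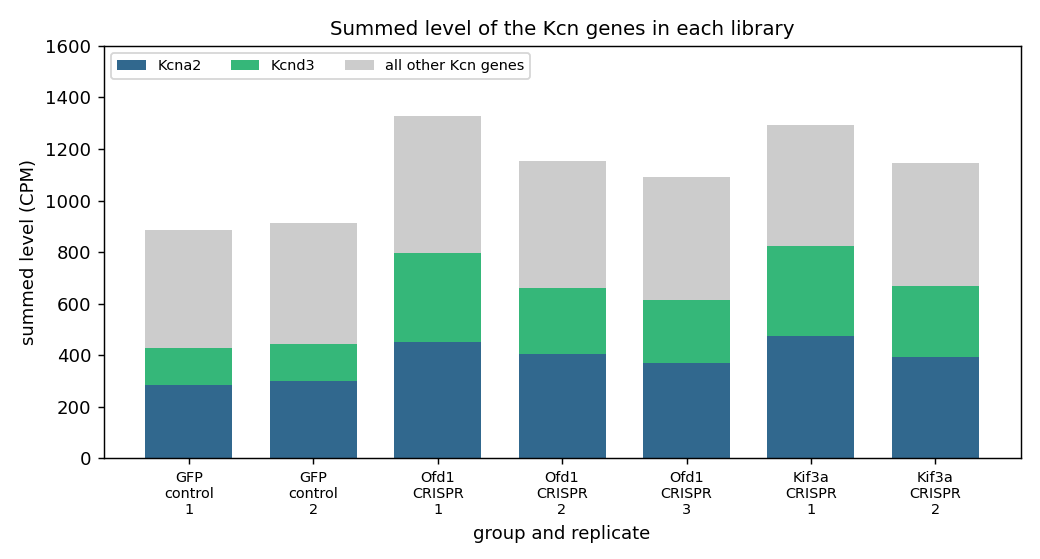
Summed level of the Kcn genes in each of the 7 libraries, in CPM from 0, split into Kcna2, Kcnd3 and all other Kcn genes. The sum is 887 and 912 CPM in the GFP control and 1092 to 1327 CPM in the cilium-guide libraries.

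Markers of other cell states and types also differed between the groups. For the differentiating granule neuron, 5 of 9 tested markers rose and 1 fell with the Ofd1 guide, where 5.35% of all tested genes rose and 6.32% fell. With the Kif3a guide 4 rose and 1 fell, where 7.55% rose and 8.84% fell. Their summed level was 715 to 719 CPM in the GFP control, 906 to 1031 with the Ofd1 guide and 978 to 1088 with the Kif3a guide, while Gabra6, which marks the mature granule neuron, and Stmn2 were at 0 in every library. Oligodendrocyte markers summed to 271 to 285 CPM, 95.8 to 183 CPM and 103 to 145 CPM in the 3 groups, with Sox10 and Mog at 0, and of 6 tested 1 fell with the Ofd1 guide and 2 with the Kif3a guide. Markers of astrocytes and neural stem cells summed to 520 to 532, 397 to 513 and 404 to 426 CPM, with Aqp4 at 0. Of 6 tested markers in that list, 1 rose and 2 fell with the Ofd1 guide and 2 fell with the Kif3a guide, so the sum does not stand for each member. The part of any of these in the channel changes was not tested, and in bulk RNA fewer cells of a type cannot be told apart from less RNA per cell. Endothelial, pericyte and fibroblast markers summed to under 4 CPM in each library, with 2 tested per list. At these low levels Myh11 of the pericyte list rose by 1.63 with the Ofd1 guide (adjusted p = 0.00449). It rose by 1.29 with the Kif3a guide (adjusted p = 0.0149). Cdh5 of the endothelial list had a log2 fold change of -1.75 with the Kif3a guide (adjusted p = 0.0250).

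Of the genes for proteins that bind potassium channels without being Kcn genes, 25 of 30 were tested. With the Ofd1 guide 2 rose and 4 fell (24.0%, against 11.7% of all tested genes), and with the Kif3a guide 2 rose and 6 fell (32.0%, against 16.4%). Lrrc38, a gamma subunit of the large-conductance channel, stood at 0.491 and 0.200 CPM in the GFP control, 1.53, 1.28 and 1.75 CPM with the Ofd1 guide, and 1.90 and 1.14 CPM with the Kif3a guide. It rose by 2.11 (adjusted p = 0.0125) and 2.13 (adjusted p = 0.0115), and both values were larger, at 2.88 and 2.90, without GFP-1. The Lrrc38 calls were lost without GFP-2 (adjusted p = 0.0811 and 0.0646) and, for the Kif3a guide, without Kif3a-1 (0.139).

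Lgi3 and Adam23, from families of secreted ligands and membrane receptors that associate with Kcna channels, both fell. Lgi3 fell by 0.80 with the Ofd1 guide (adjusted p = 0.0167) and by 0.90 with the Kif3a guide (adjusted p = 0.0122), and Adam23 fell by 0.77 (adjusted p = 0.0127) and by 0.89 (adjusted p = 0.00764). The Lgi3 calls were lost without GFP-2 (0.155 and 0.0855), without Ofd1-2 (0.0585) and without Kif3a-1 (0.139). The Adam23 calls were lost without GFP-1 (0.0542) or GFP-2 (0.0801) for the Ofd1 guide and without Kif3a-2 (0.0546) for the Kif3a guide. The scaffold gene Dlg4 stood at 124 and 119 CPM in the GFP control, 112, 108 and 107 CPM with the Ofd1 guide and 88.4 and 90.9 CPM with the Kif3a guide. It fell by 0.44 with the Kif3a guide (adjusted p = 0.00206) under every alternative run, and had a log2 fold change of -0.16 with the Ofd1 guide (adjusted p = 0.125). The scaffold gene Dlg3 fell by 0.39 with the Kif3a guide (adjusted p = 0.00911), a call lost without GFP-1 (0.0632) or GFP-2 (0.0602) or Kif3a-1 (0.0678). Ank2, an ankyrin, fell by 0.26 with the Ofd1 guide (adjusted p = 0.0262), a call lost without any 1 of GFP-1, GFP-2, Ofd1-1 and Ofd1-2 (0.0617 to 0.267).

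Of 21 tested potassium pumps, cotransporters and their kinases, none rose and 3 fell with the Ofd1 guide by edgeR. With the Kif3a guide none rose and 4 fell. These shares, 14.3% and 19.0%, lay near those of all tested genes, 11.7% and 16.4%. In each of these comparisons 7 had an unadjusted p under 0.05, and DESeq2 called 1 of the 21 higher. Slc12a4, a potassium-chloride cotransporter, stood at 87.2 and 88.2 CPM in the GFP control, 53.3, 67.0 and 59.2 CPM with the Ofd1 guide and 50.01 and 63.1 CPM with the Kif3a guide. It fell by 0.55 (adjusted p = 0.00931) and 0.64 (adjusted p = 0.00532), the second lost without Kif3a-1 (0.0734). The kinase gene Stk39, which regulates cotransporters, fell by 0.32 with the Kif3a guide (adjusted p = 0.0219), a call lost without GFP-1 (0.114) or GFP-2 (0.109) or Kif3a-2 (0.111).

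Of the 10 cyclic-nucleotide-gated relatives 5 were tested. None was called by edgeR with the settings used throughout, DESeq2 or limma-voom in any comparison, with 1 at an unadjusted p under 0.05 in each. Among all tested genes edgeR called 11.7% with the Ofd1 guide, 16.4% with the Kif3a guide and 0.103% between the guides. Hcn2, a channel opened by hyperpolarization, came nearest, at 2.90 and 3.40 CPM in the GFP control, 3.10, 3.05 and 2.78 CPM with the Ofd1 guide and 1.51 and 2.16 CPM with the Kif3a guide (log2 fold change -0.79 for the Kif3a guide, adjusted p = 0.0501). Hcn2 did pass for the Kif3a guide with 5 other edgeR settings of scaling or filter (adjusted p = 0.0335 to 0.0486) and without Kif3a-2 (0.0490). Its relative Hcn3 passed for the Ofd1 guide with library totals alone (0.0472) and without Ofd1-3 (0.0214), against adjusted p = 0.0650.

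The 12 Kcn genes with no count were Kcna4, Kcnd2, Kcnh8, Kcns1, Kcnv1, Kcne3, Kcnj1, Kcnj11, Kcnj13, Kcnk16, Kcnk18 and Kcnmb3. The 22 with 1 to 9 counts over all 7 libraries included Kcna5, Kcna6, Kcna7 and Kcna10 of the shaker family, Kcnq1, Kcne1, Kcne2 and Kcne4, the inward rectifiers Kcnj5 and Kcnj15, and the tandem-pore genes Kcnk4, Kcnk5 and Kcnk7. These 34 genes were not tested, and a difference between groups was not detectable for them at this depth.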

How the data were processed

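RNA of 7 libraries was measured by stranded mRNA sequencing with single-end reads of 75 bases. The deposited table holds raw counts per gene symbol and library, made by the authors. Per the submitters' processing notes the tools were STAR and DESeq2 and the build was mm9, without versions or roles. The labels do not state the counter, annotation, filter or strand setting. Reads shared by overlapping genes or close copies can move single values. Totals were 17961767 to 23022701 counts, and without molecular identifiers floors cover counting error only.

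Genes with at least 10 counts over the 7 libraries were kept (14588). Counts were scaled with TMM factors and fitted with edgeR 4.0.16 (R 4.3.3) quasi-likelihood, a mean per group over all 7 libraries, 4 residual degrees of freedom and a common biological coefficient of variation of 7.57%. A gene was called where its p, adjusted by Benjamini-Hochberg over the 14588 genes, was under 0.05, and SEs derive from the F statistic. The fit was tested on simulated data. Alternatives were other scalings and filters, DESeq2 1.42.0, limma-voom (limma 3.58.1), only the groups compared, a replicate block and each library left out. A GRCm38 reference served only for gene lengths (GENCODE M21), neighbours and promoters (RefSeq).

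The genes given in full were Kcna1, every Kcn gene called in any comparison, and Kcnh5, Kcnd2, Kcnj6, Kcnk3 and Kcnk9, and from the lists of partners, pumps and relatives the 4 smallest adjusted p in each comparison with GFP. Some genes that the rule takes are not reported here. Genes named beyond these were picked with their values in view. The members and lists were chosen with earlier results of these data known.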

Additional observations from a re-analysis of the deposited data

How the results depend on the processing

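No result for a Kcn gene that passed changed direction under any alternative run. Calls for Kcnd3, Kcne1l and Kcnq3 in both comparisons with the GFP control, and for Kcnh5 with the Ofd1 guide, held under every alternative. Of the 27 calls of Kcn genes in these comparisons, 9 held in this way, these included. Kcn genes called higher numbered 5 to 9 with the Ofd1 guide and 3 to 9 with the Kif3a guide when each library was left out, and those called lower numbered 1 to 3 and 1 to 8. A lone library of a group is then assumed to vary like the others. For Kcn genes, DESeq2 called 1 lower with the Ofd1 guide against 2, and 3 lower with the Kif3a guide against 7. The causes were not tested. Between the guides 1 Kcn gene was called higher, against 0, with DESeq2, with edgeR's filterByExpr, with no filter and with the replicate block. The labels number the replicates alike without saying that a number marks a shared batch, and deviations of same-numbered libraries correlated at 0.0116 to 0.283, so pairing is not shown. With the replicate number as a block, Kcn genes called numbered 11 higher and 5 lower with the Ofd1 guide, 10 and 10 with the Kif3a guide, and 1 and 0 between the guides. The block added calls with the Ofd1 guide for Kcnj6 (adjusted p = 0.0335), Kcnn4 (0.0279), Kcnab1 (0.0106) and Hcn3 (0.0136), and with the Kif3a guide for Hcn2 (0.0309). Over all genes the block gave 3575, 3712 and 177 calls against 1702, 2390 and 15. Leaving out a library gave 672 to 2502, 647 to 2862 and 0 to 27 calls over all genes. Between the guides DESeq2 called 90 genes, no filter 80 and filterByExpr 23. Scaling by library totals alone made 56.6% of all calls with the Ofd1 guide higher, against 45.8%. Genes at a few counts, such as Kcnmb1 and Kcnk9, are limited by depth, and the adjusted p of Kcnmb1 with the Kif3a guide is not given by DESeq2.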
